A study of Mus musculus with 30 samples.

Results

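The 47 genes described here encode proteins of the sarcomere other than its myosin heavy chains: thin filament proteins, the light chains and binding proteins of the thick filament, titin and the M-band, the Z-disc, and the desmin scaffold with the factors that assemble and fold these proteins. They were taken as a list of gene symbols, and all 47 were found among the 16025 genes of the count matrix and passed the filter on low counts. The list holds 17 thin filament genes, 8 genes for thick filament partners, 4 for titin and the M-band, 13 for the Z-disc and 5 for desmin, chaperones and assembly factors. RNA was sequenced from 30 cultures of C2C12 myotubes, the multinucleated cells that form when this mouse skeletal myoblast line is differentiated, labelled wildtype throughout. The study asked how red ginseng preparations act on myotubes given D-galactose, a sugar treatment used as a model of cellular ageing. The 10 groups held 3 libraries each, which the design text calls biological replicates. As the labels do not say whether these were separate days or passages, p-values measure the spread between these libraries.

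The control group received vehicle alone, and the group called Dgal here received D-galactose at 20 mg/mL for 24 h. In 4 further groups the cells received a preparation alone, each labelled as 12 h: Korean Red Ginseng water extract (RGW), its saponin fraction (SFr) or its non-saponin fraction (NSFr), each at 100 ug/mL, or ginsenoside Rb2, a single ginseng saponin, at 20 uM. The last 4 groups (RGW_Dgal, SFr_Dgal, NSFr_Dgal and Rb2_Dgal) received the same preparation for 12 h and then D-galactose for 24 h. Whether cultures given a preparation alone were kept for the further 24 h is not given in the labels, so D-galactose and extra time in culture cannot be told apart in comparisons of a combined group with its preparation alone. The cells are 1 established line grown without nerve, load or other tissue, and no group received another sugar in place of D-galactose.

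In a sarcomere, thin filaments of actin, tropomyosin and the troponin complex slide past thick filaments of myosin when calcium binds troponin C. Thin filaments are anchored at the Z-disc by alpha-actinin, with nebulin along their length and leiomodin and tropomodulin at their pointed ends, while titin spans from Z-disc to M-band and myomesins cross-link the thick filaments. Many of these proteins exist as slow, cardiac or embryonic and fast isoforms made by separate genes, and developing or cultured muscle cells such as C2C12 myotubes express several of them together.

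Library totals lay between 22209314 and 30218435 counts. Levels are given as CPM, counts scaled by library size with edgeR's TMM factors, and 3 counts amounted to 0.0993 to 0.135 CPM by library total. Myotube markers were present in all 30 libraries, with Myog at 743 to 1312 CPM and Ckm at 133 to 283 CPM. Of the markers of other cells, Adipoq, Plin1, Cidec and Fabp4 of the 5 fat cell genes, Nppa and Mybpc3 of the 5 heart genes and Myh11 of the 5 smooth muscle genes stayed under 0.5 CPM in every library. The other members of these lists were measured: Cebpa at 11.8 to 29.9 CPM, Nppb at 0.173 to 0.892, Tnni3 at up to 2.23 and Myh6 at 16.7 to 49.9, and of the smooth muscle genes Cnn1 at 0.443 to 7.36, Tagln at 74.4 to 314, Smtn at 123 to 179 and Acta2 at 1116 to 2448 CPM. Dcn, a fibroblast gene, was at 117 to 314 CPM. The common coefficient of variation between replicates of a group was 4.25%.

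Promoter sequences are shown for 6 of the genes on which the results below turn: the actin genes Acta1 and Actc1, the myosin-binding protein genes Mybpc1 and Mybph, which fell with the saponin fraction, and Klhl41 and Csrp3, which rose with D-galactose. Each is the 250 bases before the RefSeq start of the gene on GRCm38.p6, written 5′ to 3′ on the gene's strand. Capitals mark CArG boxes (bound by SRF), MEF2 sites, the M-CAT motif CATTCC (bound by TEAD factors) and the E-box CAGCTG (of the kind bound by MyoD and myogenin), each searched on both strands.
Acta1 (chr8:123894776-123895025, minus strand): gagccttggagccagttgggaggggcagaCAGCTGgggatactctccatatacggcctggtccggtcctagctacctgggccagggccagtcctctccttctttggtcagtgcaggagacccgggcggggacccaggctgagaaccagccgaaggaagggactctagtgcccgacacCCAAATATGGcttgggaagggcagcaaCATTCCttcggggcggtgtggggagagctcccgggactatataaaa
Actc1 (chr2:114052876-114053125, minus strand): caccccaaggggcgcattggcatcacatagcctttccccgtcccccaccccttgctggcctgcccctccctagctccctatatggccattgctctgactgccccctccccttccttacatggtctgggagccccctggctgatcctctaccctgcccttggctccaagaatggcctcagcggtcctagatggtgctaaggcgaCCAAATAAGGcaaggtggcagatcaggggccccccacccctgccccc
Mybpc1 (chr10:88605153-88605402, minus strand): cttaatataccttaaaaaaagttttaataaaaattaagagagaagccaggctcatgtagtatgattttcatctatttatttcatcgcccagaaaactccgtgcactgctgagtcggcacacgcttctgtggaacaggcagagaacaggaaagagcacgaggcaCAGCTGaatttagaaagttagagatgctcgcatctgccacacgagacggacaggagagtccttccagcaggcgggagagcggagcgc
Mybph (chr1:134193198-134193447, plus strand): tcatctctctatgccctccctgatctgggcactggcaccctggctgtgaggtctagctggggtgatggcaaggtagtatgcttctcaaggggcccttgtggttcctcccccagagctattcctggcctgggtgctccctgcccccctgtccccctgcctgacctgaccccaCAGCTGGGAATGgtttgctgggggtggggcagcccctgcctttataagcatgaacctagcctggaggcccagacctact
Klhl41 (chr2:69669870-69670119, plus strand): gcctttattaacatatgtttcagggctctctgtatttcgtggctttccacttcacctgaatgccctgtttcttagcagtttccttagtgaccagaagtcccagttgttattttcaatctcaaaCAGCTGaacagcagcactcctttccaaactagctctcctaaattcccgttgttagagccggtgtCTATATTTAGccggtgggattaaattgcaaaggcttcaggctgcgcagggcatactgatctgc
Csrp3 (chr7:48848052-48848301, minus strand): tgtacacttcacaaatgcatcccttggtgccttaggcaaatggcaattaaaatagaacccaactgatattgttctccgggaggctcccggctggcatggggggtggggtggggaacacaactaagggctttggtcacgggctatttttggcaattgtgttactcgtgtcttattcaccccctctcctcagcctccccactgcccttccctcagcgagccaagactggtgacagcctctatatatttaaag
In Acta1 the window held a CArG box at position -73 from the gene start and M-CAT at -46, and in Actc1 a CArG box at -47. Klhl41 held a MEF2 site at -63, Mybpc1 held CAGCTG at -87, and in Mybph CAGCTG at -79 was directly followed by M-CAT at -73. None of these capitals occurred in the Csrp3 window, which says only that the letters are not in it. The window of Pdlim3, which rose with the saponin fraction, is not printed. It held CAGCTG at -139 and M-CAT at -11 and -201, so these motifs were not limited to genes that fell. Of the 47 genes, 36 had a promoter entry, and the shares below count 1 window per gene. CArG boxes were found in 5 of 36 (13.9%), against 1.40% of 27025 genes, and CAGCTG in 13 (36.1%), against 12.8%. M-CAT was found in 12 (33.3%), against 12.6%, and MEF2 sites in 4 (11.1%), against 3.01%. The wider E-box CANNTG, which includes CAGCTG, was found in 30 (83.3%), against 66.0%. The Mybpc1 window overlaps an annotated exon of a gene on the opposite strand, and the Actc1 window lies within a longer annotated transcript of Actc1. These matches describe the sequence and are no evidence of binding in these cells.

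In control myotubes the levels per kb of longest transcript spanned more than 4 orders of magnitude. Acta1, the skeletal alpha-actin gene, led with 4633 ± 64.2 CPM per kb (SD, n = 3), followed by the fast light chain genes Mylpf at 4538 ± 236 and Myl1 at 2867 ± 175 and by Tnnc1, slow and cardiac troponin C, at 2671 ± 247 CPM per kb. Acta1 and Mylpf did not differ beyond their spread, and neither did Myl1 and Tnnc1. Actc1, the cardiac alpha-actin gene that is also expressed in embryonic skeletal muscle, ranked 9 at 1036 ± 15.4 CPM per kb. Titin (Ttn, ENSMUSG00000051747, chr2:76703980-76982547, minus strand) stood at 31.3 ± 10.1 CPM per kb, rank 40, with a longest transcript of 106824 bases. Myl3, Tmod4 and Nebl were at the low end, under 0.3 CPM per kb. Myl3, the slow and ventricular essential light chain, and Tmod4, a muscle tropomodulin, had only 2 to 20 counts in a library, and Nebl, the cardiac relative of nebulin, 23 to 67. Actin genes are close copies, and RSEM divides reads that match several of them, so their levels carry an uncertainty that the counts do not show.

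**Figure D1:**
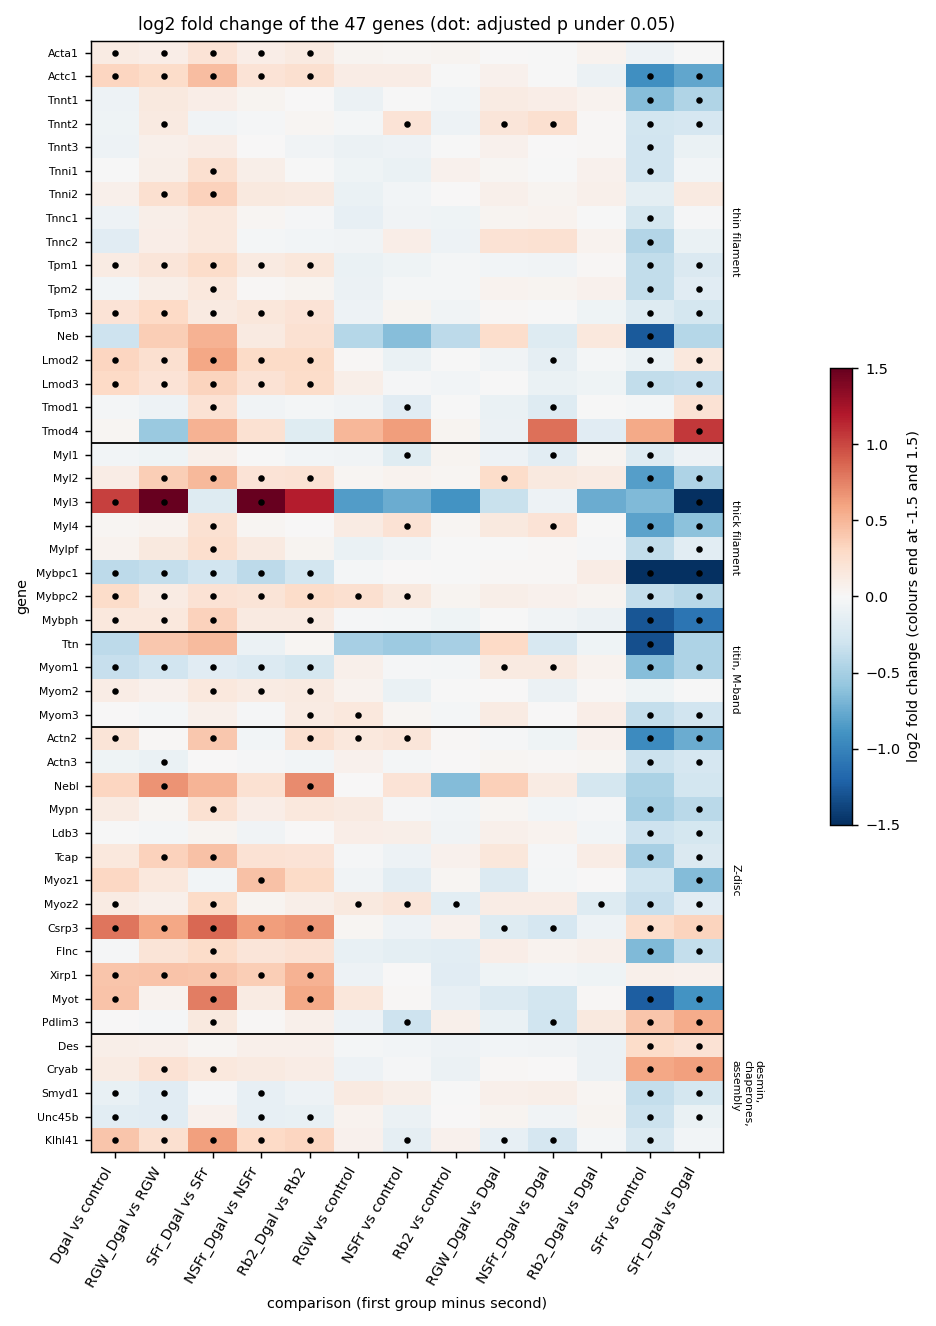
Log2 fold changes of the 47 genes (rows, grouped by role) in 13 comparisons (columns), coloured from -1.5 (blue) to 1.5 (red), with a dot where edgeR's adjusted p was under 0.05. The columns for the saponin fraction (right) are mostly blue, those for D-galactose (left) mostly pale red, and those for RGW, NSFr and Rb2 (middle) mostly pale with few dots.

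The widest change in these genes came with the saponin fraction. Tested with edgeR's quasi-likelihood test over 12184 genes, at a Benjamini-Hochberg adjusted p under 0.05, 34 of the 47 genes fell and 4 rose with SFr against control, where 21.8% of all genes tested fell and 21.3% rose (43.1% in either direction). After D-galactose, in separate libraries, 27 fell and 7 rose in SFr_Dgal against Dgal, where 21.0% of all genes fell and 20.3% rose (41.3% in either direction). The median log2 fold change of the 47 was -0.35 without and -0.25 with D-galactose, beside 0.000 and -0.006 over all genes tested. Across both comparisons 25 of the genes fell in each, 4 rose in each (Csrp3, Des, Cryab and Pdlim3), and 5 were called in neither (Acta1, Tnni2, Nebl, Myom2 and Xirp1). Lmod2 was called in opposite directions. Together the 47 genes took 5.25% ± 0.143 (SD, n = 3) of all counts in control, 4.31% ± 0.0762 in SFr, 5.44% ± 0.0449 in Dgal and 4.99% ± 0.15 in SFr_Dgal. This share includes Ttn and Neb, whose levels moved with those of other long transcripts, as described below. Their part in it was not taken out.

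Among thin filament genes, 13 of 17 fell and 0 rose with SFr (median log2 fold change -0.28), and 7 fell and 3 rose after D-galactose (-0.10). Of all genes tested, 21.8% fell and 21.3% rose with SFr, and 21.0% fell and 20.3% rose after D-galactose. Actc1 was at 1501, 1529 and 1546 CPM in the control libraries and 764, 873 and 785 in SFr, and at 1802, 2022 and 1918 in Dgal and 1103, 1139 and 1108 in SFr_Dgal. No library with the saponin fraction reached the lowest library of its comparison group, and the log2 fold changes were -0.92 ± 0.044 (SE; adjusted p = 2.12e-18) and -0.78 ± 0.044 (adjusted p = 1.94e-16), or 1.89-fold and 1.71-fold lower. Acta1 was at 6697, 6607 and 6793 CPM in control and 6216, 6578 and 6239 in SFr, and at 7104, 7540.4 and 7284 in Dgal and 7283, 7229 and 7397 in SFr_Dgal. Every SFr library was below every control library, but the change was small and did not pass the test (-0.08 ± 0.035, adjusted p = 0.0667), and the groups overlapped after D-galactose (-0.00 ± 0.035, adjusted p = 0.982).

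Most troponin genes, whose proteins carry the calcium switch, fell with SFr by smaller amounts. Tnnt1, slow troponin T, was at 947, 878 and 810.1 CPM in control and 545, 594 and 557 in SFr, a log2 fold change of -0.64 ± 0.054 (adjusted p = 3.48e-11), and changed by -0.46 ± 0.054 in SFr_Dgal against Dgal (adjusted p = 4.04e-08). Tnnt2, cardiac and embryonic troponin T, changed by -0.27 ± 0.047 and -0.26 ± 0.047, both called. Tnnt3, fast troponin T, was at 1784, 1629.9 and 1596 CPM in control and 1353, 1435 and 1316 in SFr. It fell with SFr alone (-0.29 ± 0.048, adjusted p = 7.57e-06) and was not called after D-galactose (-0.10 ± 0.048, adjusted p = 0.0881). Calls with SFr alone but not after D-galactose were also made for slow troponin I, Tnni1 (-0.28 ± 0.061 alone), for Tnnc1 (-0.26 ± 0.07) and for fast troponin C, Tnnc2 (-0.43 ± 0.07), whose log2 values after D-galactose were -0.04, -0.02 and -0.10. In control and SFr in turn, Tnni1 was at 2041, 1820.1 and 1783 and 1566, 1558 and 1513 CPM, Tnnc1 at 2124, 1875 and 1778 and 1619, 1641 and 1569.6, and Tnnc2 at 700.3, 589 and 553 and 448, 467 and 449. In each of these the SFr libraries were the lower ones, by less than for Actc1. Fast troponin I, Tnni2, at 692, 634 and 599 CPM in control and 574, 606 and 559 in SFr, was called in neither (-0.15 and 0.13). The call for Tnnc1 was lost without control replicate 1 (-0.17, adjusted p = 0.0563), the control library with the highest level of this gene.

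Tropomyosins, which cover the myosin sites on actin, fell in all 6 tests, with log2 fold changes of -0.37 and -0.22 for Tpm1, -0.37 and -0.17 for Tpm2 and -0.19 and -0.27 for Tpm3, without and with D-galactose. At the pointed end of the filament, Lmod3, a leiomodin that nucleates actin, fell in both (-0.37 ± 0.035 and -0.34 ± 0.035). Its relative Lmod2 was at 193, 202 and 199 CPM in control and 184, 188 and 179.9 in SFr, a fall of 0.11 on the log2 scale (adjusted p = 0.0148). That call was lost without control replicate 2 (-0.10, adjusted p = 0.0531) and without SFr replicate 3 (-0.08, adjusted p = 0.0884). After D-galactose Lmod2 was at 238, 254 and 250.3 CPM in Dgal and 281, 284 and 264 in SFr_Dgal, higher in every library (0.16 ± 0.035, adjusted p = 0.000341). Tmod1, a tropomodulin that caps the same end, was not called with SFr alone (-0.02 ± 0.035) and rose after D-galactose (0.22 ± 0.035, adjusted p = 5.57e-06). Tmod4 was also called higher there (1.07 ± 0.34), from counts of 9, 5 and 5 in Dgal and 15, 13 and 20 in SFr_Dgal, and lost the call under 5 alternatives, with adjusted p up to 0.0884.

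The genes for thick filament partners held the gene with the largest change, Mybpc1. In this group 7 of 8 fell in each comparison, with medians of -0.73 and -0.54, and none rose. Of all genes tested, 21.8% fell and 21.3% rose with SFr, and 21.0% fell and 20.3% rose after D-galactose. Mybpc1, slow myosin-binding protein C, was at 73.1, 72.5 and 68.9 CPM in control and 15.8, 19.0 and 16.8 in SFr. Its level in the SFr libraries was 4.17-fold lower, a log2 fold change of -2.06 ± 0.068 (adjusted p = 4.78e-22). In Dgal it was at 58.5, 51.8 and 53.0 CPM and in SFr_Dgal at 13.8, 16.0 and 12.5, again with no overlap (-1.96 ± 0.071, adjusted p = 1.28e-20).

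Mybph, the related myosin-binding protein H, was at 2652, 2671 and 2754 CPM in control and 1021, 1183 and 1118 in SFr, and at 2948, 3097 and 2956 in Dgal and 1357, 1465 and 1392 in SFr_Dgal. The groups were far apart in both comparisons, with log2 fold changes of -1.28 ± 0.046 (adjusted p = 1.43e-21) and -1.09 ± 0.046 (adjusted p = 8.84e-20). Mybpc2, fast myosin-binding protein C, fell less (-0.35 ± 0.042 and -0.42 ± 0.042). Of the light chains, Myl4, the embryonic and atrial essential chain, was at 1535, 1359 and 1263 CPM in control and 776, 829.8 and 776 in SFr (-0.80 ± 0.057, adjusted p = 1.56e-12) and after D-galactose at 1474, 1422 and 1364 in Dgal and 863, 895 and 1026 in SFr_Dgal (-0.61 ± 0.057). Myl2, the slow and ventricular regulatory chain, was at 60.1, 55.0 and 52.2 CPM in control and 33.6, 30.4 and 30.1 in SFr (-0.83 ± 0.068), and at 61.0, 60.5 and 60.2 in Dgal and 42.0, 44.0 and 46.1 in SFr_Dgal (-0.46 ± 0.066). For both genes all libraries with the saponin fraction lay below their comparison group, which was a condition of naming them and adds no support. Of the fast chains, Mylpf was at 3678, 3419 and 3331 CPM in control and 2739, 2728 and 2625 in SFr, and Myl1 at 3305, 3072 and 2929 and 2714, 2804 and 2616. Their changes were smaller: Mylpf by -0.37 ± 0.055 and -0.16 ± 0.055, and Myl1 by -0.19 ± 0.04, with -0.08 ± 0.04 after D-galactose (adjusted p = 0.12). The call for Mylpf after D-galactose (adjusted p = 0.0185) was lost without Dgal replicate 1 (-0.12), SFr_Dgal replicate 1 (-0.10) or SFr_Dgal replicate 2 (-0.14) and in a fit of only these groups (-0.16). Myl3 was called only after D-galactose (-1.88 ± 0.42, adjusted p = 0.000517), from counts of 11, 17 and 16 in Dgal and 5, 5 and 4 in SFr_Dgal.

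**Figure D2:**
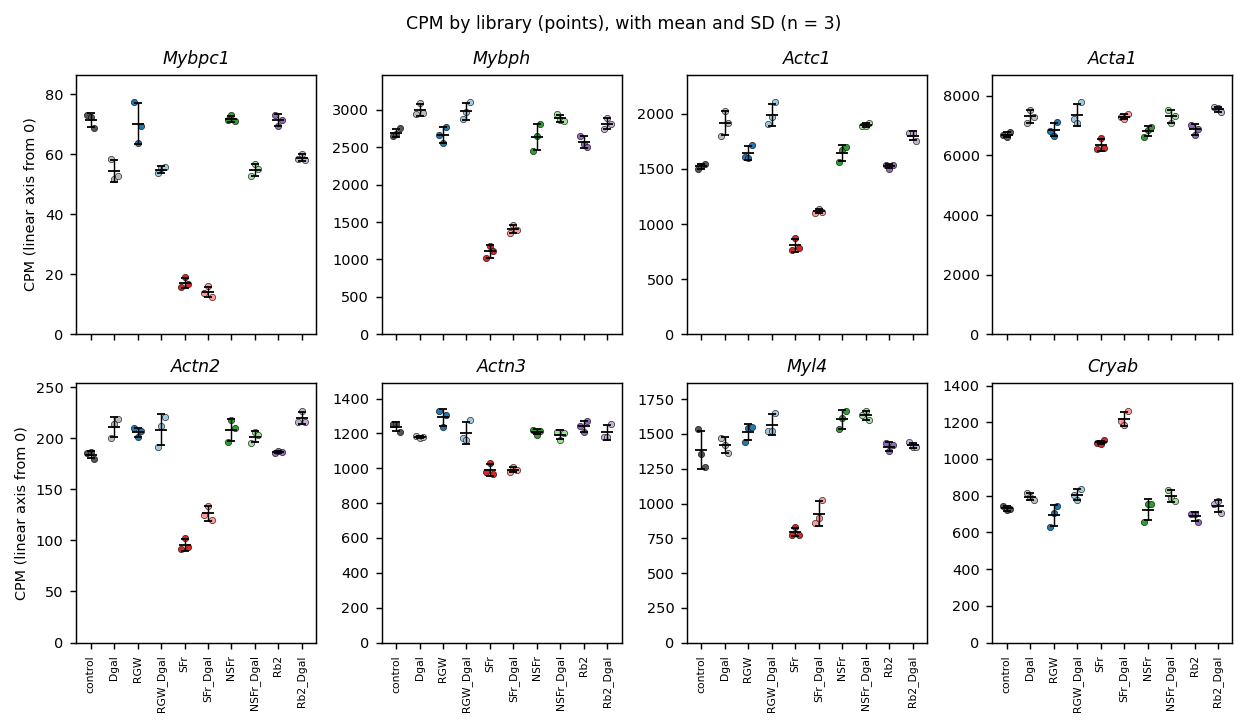
CPM of 8 genes in each of the 30 libraries (points, by group), with the group mean and SD (n = 3), on linear axes from 0. The SFr and SFr_Dgal libraries stand below the other groups for Mybpc1, Mybph, Actc1, Actn2, Actn3 and Myl4 and above them for Cryab, while the means of Acta1 stay between 6345 and 7555 CPM.

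For titin and the M-band, 3 of 4 fell with SFr and 2 after D-galactose, and none rose, where 21.8% and 21.0% of all genes tested fell. Myom1, the myomesin present in all striated muscle, was at 315, 348 and 324 CPM in control and 204, 216 and 211 in SFr (-0.64 ± 0.038, adjusted p = 4.99e-16), and after D-galactose at 260.1, 249 and 264 in Dgal and 189, 189.8 and 182 in SFr_Dgal (-0.47 ± 0.038, adjusted p = 2.79e-12). Myom3 changed by -0.36 ± 0.041 and -0.29 ± 0.041, and Myom2, the fast-fibre and cardiac myomesin, was called in neither (-0.07 and -0.01). Ttn was at 2757, 4590.4 and 2696 CPM in control and 1036, 1125 and 1857 in SFr, where control replicate 2 stood far above the other control libraries. Its log2 fold change was -1.32 ± 0.28 (adjusted p = 0.000624). After D-galactose it was at 2212, 2613 and 2821 CPM in Dgal and 1902, 1334 and 2328 in SFr_Dgal, which overlapped (-0.46 ± 0.28, adjusted p = 0.201). Nebulin (Neb), the ruler-like protein of the thin filament, ran in parallel, at 2208, 3151 and 2133 CPM in control and 817, 906 and 1401 in SFr (-1.26 ± 0.24, adjusted p = 0.000202) and with a change of -0.43 ± 0.24 after D-galactose (adjusted p = 0.161). Without control replicate 2 the changes with SFr alone were -1.03 for Ttn and -1.06 for Neb, and in a fit of only SFr and control the adjusted p of Ttn was 0.0508.

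Both transcripts are very long, and their levels moved with those of other long transcripts from library to library. A long-transcript level was taken for each library as the mean log2 CPM of genes outside the lists whose longest transcript has at least 10 kb, set to 0 at the control mean. It ranged from -0.089 to 0.112 in control, from -0.350 to -0.105 in SFr and from -0.270 to -0.121 in SFr_Dgal, the 2 lowest groups. Deviations from the group mean of Ttn, Neb and Flnc followed those of this level over the 30 libraries (r = 0.885, 0.945 and 0.905, as descriptions of libraries that share depth and preparation). Many shorter members ran against it, among them Tpm1 (r = -0.763), Tnnt3 (-0.732), Tpm2 (-0.718) and Des (-0.651). Mybpc1 (-0.134) and Actn2 (-0.173) followed it little. The 317 other tested genes of at least 10 kb had a median log2 fold change of -0.22 with SFr and -0.10 after D-galactose, against 0.02 and 0.10 for genes under 2 kb. With the level as a covariate, added after the data were seen, the change with SFr became -0.47 ± 0.17 for Ttn (adjusted p = 0.0354) and -0.49 ± 0.1 for Neb (adjusted p = 0.000665), and after D-galactose it was -0.02 ± 0.14 and -0.02 ± 0.087. In the same fit Mybpc1 changed by -2.08 ± 0.083 with SFr, Actc1 by -0.97 ± 0.051 and Actn2 by -0.97 ± 0.061, as large as without it. What sets the long-transcript level, and its part in the results of Ttn, Neb and the other members, was not tested.

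**Figure D3:**
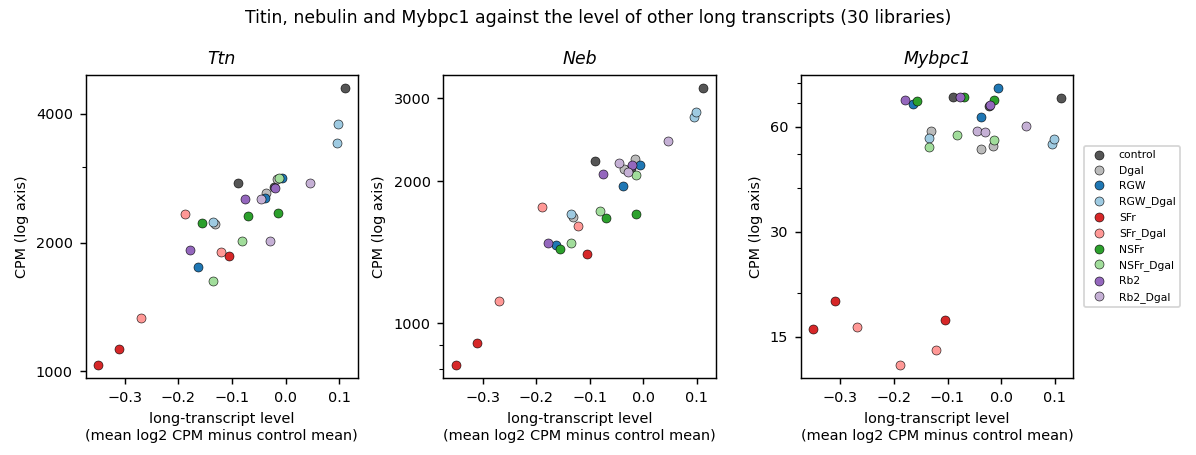
CPM of Ttn, Neb and Mybpc1 (log axes) against the long-transcript level of the same library (mean log2 CPM minus the control mean) in 30 libraries coloured by group. Ttn and Neb rise along the axis, from 1036 CPM of Ttn in SFr replicate 1 to 4590 CPM in control replicate 2, whereas Mybpc1 separates the 6 libraries with the saponin fraction at any level.

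Of 13 Z-disc genes, 8 fell and 2 rose with SFr, and 9 fell and 2 rose after D-galactose (medians -0.35 and -0.26). The shares over all genes tested were 21.8% falling and 21.3% rising with SFr, and 21.0% and 20.3% after D-galactose. Actn2, the alpha-actinin of cardiac and skeletal muscle, was at 185, 187 and 179.9 CPM in control and 91.2, 103 and 93.7 in SFr, and at 199.9, 214 and 219 in Dgal and 125, 134 and 120.1 in SFr_Dgal. The highest SFr library was far below the lowest control library, with log2 fold changes of -0.94 ± 0.049 (adjusted p = 2.02e-17) and -0.74 ± 0.048 (adjusted p = 9.02e-15). Its fast-fibre relative Actn3, at 1253, 1251 and 1207 CPM in control and 980.4, 1028 and 965 in SFr, changed by -0.32 ± 0.036 and -0.25 ± 0.036. Myot, which encodes the actin-bundling protein myotilin, was at 15.7, 16.4 and 15.9 CPM in control and 6.07, 8.11 and 6.39 in SFr (-1.23 ± 0.11, adjusted p = 2.39e-11), and at 20.8, 22.3 and 21.7 in Dgal and 10.9, 11.5 and 12.4 in SFr_Dgal (-0.90 ± 0.094), with no overlap in either comparison. Myopalladin (Mypn), which links alpha-actinin to nebulin, changed by -0.51 and -0.41, Ldb3, a PDZ-LIM protein, by -0.31 and -0.26, and Myoz2, the slow-fibre calsarcin, by -0.35 and -0.17. Flnc, muscle filamin, changed by -0.66 ± 0.08 and -0.36 ± 0.08, and with the long-transcript level as a covariate by -0.41 ± 0.043 and -0.23 ± 0.036. Telethonin (Tcap), which joins titin ends at the Z-disc, changed by -0.50 ± 0.087, and its call after D-galactose (-0.22 ± 0.085, adjusted p = 0.0408) was lost in 6 alternatives, among them each leave-out of a Dgal library, with adjusted p up to 0.187.

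A few Z-disc genes went the other way. Pdlim3, the alpha-actinin-associated LIM protein gene, was at 677, 679 and 636 CPM in control and 873, 931 and 858 in SFr, and at 639, 685 and 672 in Dgal and 970.1, 975 and 989 in SFr_Dgal. Every library with the saponin fraction was above every library of its comparison group (0.42 ± 0.044, adjusted p = 1.19e-09, and 0.56 ± 0.044, adjusted p = 1.74e-12). Csrp3, which encodes muscle LIM protein, was at 104, 98.8 and 102 CPM in control and 119, 129 and 119.9 in SFr (0.27 ± 0.06, adjusted p = 0.000591) and rose again on top of D-galactose, from 183, 179 and 170.0 in Dgal to 212, 215 and 243 in SFr_Dgal (0.33 ± 0.058, adjusted p = 3.30e-05). With the long-transcript level as a covariate the change of Csrp3 with SFr alone was 0.16 ± 0.068 (adjusted p = 0.069). Xirp1, an actin-binding repeat protein of adhesion sites and the Z-disc region, was called in neither (0.07 and 0.07).

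In the last group, the intermediate filament and the small heat shock protein that protects it rose, and the assembly factors fell with SFr. Cryab, alpha-B-crystallin, was at 743, 721 and 728 CPM in control and 1088, 1084 and 1101 in SFr (0.58 ± 0.05, adjusted p = 1.91e-11), and at 814, 793 and 777 in Dgal and 1206, 1186 and 1263 in SFr_Dgal (0.62 ± 0.05, adjusted p = 4.97e-12). Des, desmin, was at 4338, 4032 and 4249 CPM in control and 4991, 5201 and 5044 in SFr (0.27 ± 0.034, adjusted p = 4.81e-08), and at 4478, 4505 and 4425 in Dgal and 5065, 5185 and 5361 in SFr_Dgal (0.22 ± 0.034). The groups did not overlap for either gene. Smyd1, a methyltransferase that helps assemble myosin, was at 121, 119.9 and 121 CPM in control and 96.5, 97.3 and 88.2 in SFr, and Unc45b, a myosin chaperone gene, at 172, 179 and 168 and 136, 145 and 134. Smyd1 changed by -0.36 ± 0.039 and -0.26 ± 0.04, and Unc45b by -0.32 ± 0.039 with SFr. Unc45b after D-galactose (-0.10 ± 0.039, adjusted p = 0.0375) lost its call without Dgal replicate 1 (-0.07) or 3 (-0.08), without SFr_Dgal replicate 1 (-0.07) or 3 (-0.09), and in 2 other settings. Klhl41, a kelch protein that stabilises nebulin, fell with SFr alone (-0.24 ± 0.036, adjusted p = 1.40e-06) and was not called after D-galactose (-0.05).

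Genes of related lists were measured in the same libraries, where 21.3% of all genes tested rose and 21.8% fell with SFr and 20.3% rose and 21.0% fell after D-galactose. Sarcomeric myosin heavy chain genes fell in 8 of 8 cases with SFr and in 8 of 8 after D-galactose, with medians of -0.98 and -0.68, among them Myh8 (-1.39 ± 0.064) and Myh3 (-0.99 ± 0.044). Of 36 other sarcomere-associated genes 8 rose and 12 fell with SFr, and 10 rose and 13 fell after D-galactose. The small heat shock protein genes Hspb1 (0.99 ± 0.061), Hspb7 (0.56 ± 0.05) and Hspb8 (0.25 ± 0.036) were among those that rose, as was Trim63, a muscle ubiquitin ligase (0.59 ± 0.059). Obsl1 (-0.70 ± 0.04), Palld (-0.71 ± 0.053) and Fhl1 (-0.56 ± 0.037) were among those that fell. Of 12 tested transcription factors of sarcomere genes, 6 fell and 1 rose with SFr. Mef2c went from 627 ± 26.4 to 301 ± 14.5 CPM (-1.06 ± 0.046, adjusted p = 1.52e-19), Mef2a changed by -0.90 ± 0.038 and Myog, myogenin, by -0.59 ± 0.048, while Srf was not called (-0.11 ± 0.048, adjusted p = 0.0555).

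Marker lists of cell state and cell type moved with SFr as well, where 21.8% of all genes tested fell and 21.3% rose (21.0% and 20.3% after D-galactose). All 8 myotube markers found in the table fell with SFr and 7 of 8 after D-galactose, and their summed level was 8306 to 8550.0 CPM in control, 5936 to 6281 in SFr, 8109 to 8228 in Dgal and 6170.2 to 6410.1 in SFr_Dgal. The 4 fibroblast markers tested, led by Dcn (1.32 ± 0.042), rose in both comparisons, with sums of 309 to 322 CPM in control, 579 to 602 in SFr, 311 to 315 in Dgal and 514 to 535 in SFr_Dgal. Thy1 of that list stayed under 1 CPM in every library. The 4 smooth muscle markers tested fell. Of 10 markers of undifferentiated myoblasts 4 rose and 4 fell in each comparison, with a median log2 fold change of 0.06 with SFr. The proliferation genes Mki67 (-1.60 ± 0.17) and Top2a (-1.23 ± 0.095) were among the 4 that fell with SFr. The sum of this list was 619 to 642 CPM in control, 468 to 498 in SFr, 566 to 579 in Dgal and 421 to 433 in SFr_Dgal. Most of it was Cdh15, at 227 to 413 CPM over the 30 libraries, while no other gene of the list exceeded 65.4 CPM. The sum therefore does not describe the list as a whole, in which as many genes rose as fell. In such bulk samples fewer myotubes and less RNA of these genes per myotube cannot be told apart, and the part of cell makeup in the results was not tested.

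Slow or cardiac and fast isoform genes were also compared. Of 10 slow or cardiac genes among the 47, 8 fell and 1 rose with SFr (median -0.49), and of 8 fast genes 6 fell and 0 rose (-0.31). Most genes of both lists thus fell, where 21.8% of all genes tested fell and 21.3% rose. The count ratio within 7 isoform pairs was compared in a test added after the data were seen, an exact 2-sided permutation of libraries within the strata without and with D-galactose (400 arrangements, smallest p 0.005), with adjustment over the 7 pairs, of which 6 are described. Log2 Mybpc1/Mybpc2 was -0.70, -0.73 and -0.78 in control and -2.51, -2.38 and -2.44 in SFr, and -1.27, -1.49 and -1.48 in Dgal and -2.99, -2.80 and -3.04 in SFr_Dgal. The ratio was lower in all 6 libraries with the saponin fraction than in all 6 without it, with a mean difference of -1.62 (exact permutation p = 0.005, the smallest possible, adjusted 0.007). Both genes of each pair had already been tested in these libraries, so the ratio p-values are no separate support. The same p was reached by Actn2/Actn3 (-0.55), Tnnt1/Tnnt3 (-0.35) and Tnni1/Tnni2 (-0.15). Actn2 is in neither the slow or cardiac list nor the fast list, so its pair does not set a slow gene against a fast one. Troponin C went the other way, with log2 Tnnc1/Tnnc2 higher by 0.12 (exact permutation p = 0.015, adjusted 0.0175), and for Myoz2/Myoz1 the difference was -0.05 without D-galactose and 0.48 with it, with a mean of 0.22 (exact permutation p = 0.165).

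**Figure D4:**
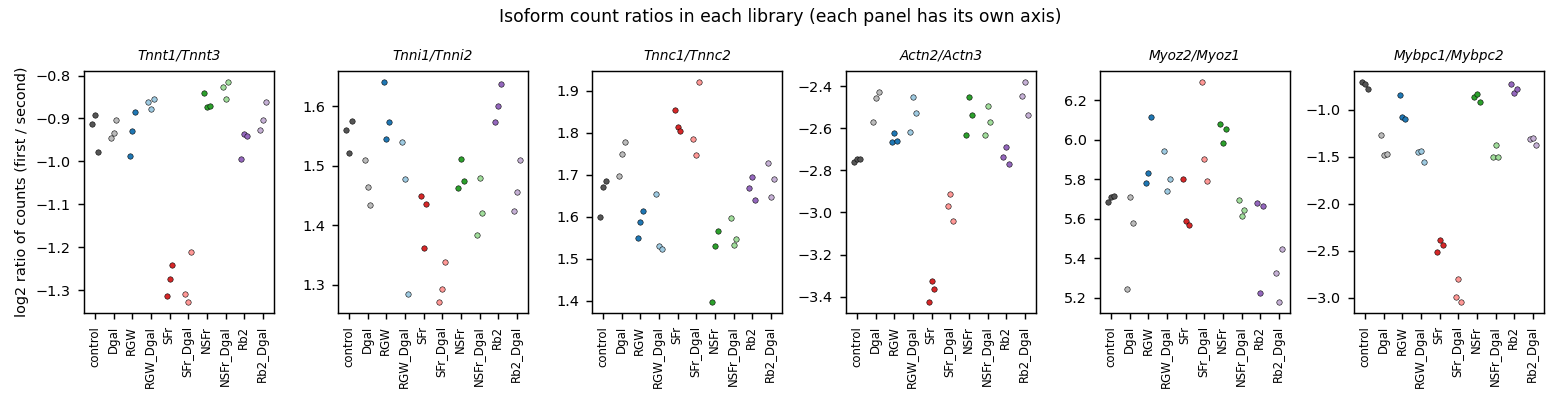
Log2 ratio of counts within 6 isoform pairs in each of 30 libraries, by group, each panel with its own axis. Each ratio is of a slow or cardiac gene over a fast gene, except Actn2/Actn3, where Actn2 is in neither list. In the SFr and SFr_Dgal libraries the ratio is lowest for Mybpc1/Mybpc2 (-3.04 to -2.38), Actn2/Actn3 and Tnnt1/Tnnt3, and Mybpc1/Mybpc2 is also lower in each D-galactose group than in its partner.

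Between the 2 fractions of the extract, given at the same 100 ug/mL and 12 h, the difference was of the same kind: 34 of the 47 genes were lower and 5 higher in SFr than in NSFr (19.6% and 20.8% of all genes, 40.4% in either direction), and 26 lower and 7 higher in SFr_Dgal than in NSFr_Dgal (20.3% and 20.7%, 41.0% in either direction). These comparisons share the SFr and SFr_Dgal libraries with those above. Mybpc1 was at 71.6, 73.1 and 71.1 CPM in NSFr, far above the SFr libraries (-2.07 ± 0.067, adjusted p = 4.41e-22), and the log2 difference was -1.03 ± 0.044 for Actc1 and -1.12 ± 0.049 for Actn2. In SFr_Dgal and NSFr_Dgal in turn, Mybph was at 1357, 1465 and 1392 and 2945, 2859 and 2852 CPM and Pdlim3 at 970.1, 975 and 989 and 538, 544 and 546, apart in opposite directions. Pdlim3 had the largest difference upward among the 47, 0.73 ± 0.045 without and 0.85 ± 0.045 with D-galactose.

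The non-saponin fraction by itself changed 9 of the 47 genes, with 5 higher and 4 lower than control where 4.56% and 3.51% of all genes rose and fell (8.08% in either direction). Pdlim3 was at 487, 554 and 568 CPM in NSFr and 677, 679 and 636 in control, lower in every library (-0.31 ± 0.044, adjusted p = 4.27e-05). Tmod1, at 188, 191 and 195 CPM in NSFr and 219, 214 and 214 in control, changed by -0.17 ± 0.036 (adjusted p = 0.00189), Myl1 by -0.18 ± 0.04 and Klhl41 by -0.13 ± 0.036. Myoz2 rose by 0.18 ± 0.039 (adjusted p = 0.00292), Tnnt2 by 0.20 ± 0.047, Actn2 by 0.18 ± 0.047, Mybpc2 by 0.14 ± 0.042 and Myl4 by 0.21 ± 0.057. In NSFr and control in turn, Myoz2 was at 169, 178 and 179.7 and 162, 149 and 152 CPM and Tnnt2 at 1699, 1637 and 1729 and 1525, 1472 and 1413, with all NSFr libraries above control. Pdlim3, Tmod1, Myoz2 and Tnnt2 kept their calls in every alternative run. The count was 5 without control replicate 3, and for Actn2, Klhl41, Mybpc2, Myl1 and Myl4 the adjusted p rose to between 0.079 and 0.0999 in at least 1 of the alternatives, with log2 values as small as 0.15 for Actn2, -0.12 for Klhl41, 0.13 for Mybpc2, -0.13 for Myl1 and 0.15 for Myl4.

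After D-galactose, NSFr_Dgal against Dgal had 3 genes higher and 6 lower (3.5% and 2.82% of all genes, 6.33% in either direction). Pdlim3 (-0.29 ± 0.044, adjusted p = 5.89e-05), Tmod1 (-0.20 ± 0.036), Klhl41 (-0.25 ± 0.036, adjusted p = 1.89e-05), Csrp3 (-0.25 ± 0.059), Lmod2 (-0.13 ± 0.035) and Myl1 (-0.15 ± 0.04) were lower, and Tnnt2 (0.24 ± 0.047, adjusted p = 0.00164), Myl4 (0.20 ± 0.057) and Myom1 (0.13 ± 0.038) higher. Klhl41 was at 1198, 1214 and 1216 CPM in Dgal and 992, 1023 and 1028 in NSFr_Dgal, and Tnnt2 at 1449.9, 1328 and 1438 and 1692, 1671 and 1623, with no overlap for either. Without NSFr_Dgal replicate 2, 5 genes were called. Pdlim3, Tmod1, Klhl41, Myl1, Tnnt2 and Myl4 were called in the same direction with NSFr against control and with NSFr_Dgal against Dgal.

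The whole water extract changed few of these genes. Against control 4 rose and 0 fell with RGW (2.04% and 1.17% of all genes, 3.21% in either direction): Mybpc2 (0.24 ± 0.042, adjusted p = 0.000567), Myom3 (0.16 ± 0.041), Myoz2 (0.15 ± 0.04) and Actn2 (0.16 ± 0.047, adjusted p = 0.0499). Mybpc2 was at 119, 120.3 and 118 CPM in control and 139, 135 and 149 in RGW, above control in every library, and it was called in every alternative run. The count fell to 2 without control replicate 2 or 3 and to 1 without RGW replicate 1 or 3. After D-galactose 3 were higher and 2 lower in RGW_Dgal than in Dgal (2.52% and 2.54%, 5.06% in either direction). Myl2 was at 61.0, 60.5 and 60.2 CPM in Dgal and 70.2, 72.6 and 77.8 in RGW_Dgal, with no overlap (0.28 ± 0.063, adjusted p = 0.00678). Tnnt2 (0.18 ± 0.047) and Myom1 (0.14 ± 0.038) were also higher. Csrp3, at 149.7, 152 and 163 CPM in RGW_Dgal (-0.20 ± 0.059), and Klhl41, at 1102, 1088 and 1141 (-0.12 ± 0.036), were lower than in Dgal. With the long-transcript level as a covariate 9 genes were called with RGW and 8 with RGW_Dgal, but the share of all genes called in that fit is not given. The count with RGW_Dgal was 3 without Dgal replicate 1 or RGW_Dgal replicate 1, 2 without RGW_Dgal replicate 2 and 1 without Dgal replicate 2. The calls of Csrp3 and Klhl41 were both lost without any 1 of the 3 Dgal libraries, without RGW_Dgal replicate 1 or without RGW_Dgal replicate 2, with adjusted p between 0.0621 and 0.185 for Csrp3 and between 0.0715 and 0.175 for Klhl41. They were lost as well without the filter on low counts (-0.19, adjusted p = 0.0788, and -0.12, adjusted p = 0.0565).

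Rb2 changed 1 gene in each setting, Myoz2, which was at 162, 149 and 152 CPM in control and 142, 136 and 137 in Rb2 (-0.16 ± 0.04, adjusted p = 0.0221), and at 162, 174 and 168 in Dgal and 146, 147 and 148 in Rb2_Dgal (-0.19 ± 0.04, adjusted p = 0.00435). Every Rb2 library was below its comparison group in both settings, which was a condition of naming this gene and adds no support. Over all genes, 0.575% rose and 0.96% fell with Rb2 (1.53% in either direction) and 1.16% and 1.1% after D-galactose (2.26%). The call without D-galactose was lost without control replicate 1 (-0.12) or 3 (-0.17) and without Rb2 replicate 2 (-0.14) or 3 (-0.15), and that after D-galactose without Dgal replicate 2 (-0.16, adjusted p = 0.0623). Because Rb2 was given in uM and the saponin fraction in ug/mL, their doses are not matched and no comparison between them was made.

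D-galactose by itself raised more of these genes than it lowered. Against control 16 rose and 4 fell, where 11.9% of all genes rose and 13.1% fell (25.1% in either direction), and the median log2 fold change of the 47 was 0.07 beside -0.004 over all genes. By role, 6 of 17 thin filament genes, 5 of 13 Z-disc genes and 3 of 8 thick filament partners rose, and none of the thin filament or Z-disc genes fell. Apart from Myl3, which had 7, 6 and 10 counts in control and 11, 17 and 16 in Dgal, Csrp3 moved furthest: it was at 104, 98.8 and 102 CPM in control and 183, 179 and 170.0 in Dgal, 1.74-fold higher with no overlap (0.80 ± 0.06, adjusted p = 8.04e-11). Klhl41 was at 905, 897 and 909 CPM in control and 1198, 1214 and 1216 in Dgal (0.42 ± 0.036, adjusted p = 9.92e-11), and Lmod2 rose by 0.32 ± 0.035. Lmod3 was at 275, 265 and 270.0 CPM in control and 339, 336 and 323 in Dgal (0.30 ± 0.035). None of these 4 genes overlapped between the groups, which was a condition of naming them among the largest rises and adds no support.

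Xirp1 was at 353, 394 and 396 CPM in control and 469.6, 533 and 520.1 in Dgal (0.41 ± 0.052, adjusted p = 4.11e-07), and Mybpc2 at 119, 120.3 and 118 and 141, 145 and 147 (0.28 ± 0.042). Both were higher in every Dgal library, as were Myot (0.43 ± 0.092) and Actc1 (0.33 ± 0.043, adjusted p = 6.88e-07). Acta1 rose by 0.13 ± 0.035 (adjusted p = 0.00722), a call lost without Dgal replicate 2 (0.11, adjusted p = 0.0521). Of the genes that fell, Myom1 was at 260.1, 249 and 264 CPM in Dgal against 315, 348 and 324 in control (-0.35 ± 0.038, adjusted p = 1.38e-08) and Mybpc1 changed by -0.40 ± 0.06 (adjusted p = 8.65e-06), so that it was lower with D-galactose as well as with SFr. Unc45b was at 162, 147 and 157 CPM in Dgal (-0.16 ± 0.039) and Smyd1 at 116, 109.8 and 109 (-0.11 ± 0.039), with their control values given above; the call for Smyd1 was lost in 6 alternatives, among them without each control library, with adjusted p up to 0.141. The troponin genes, Mylpf, Myl1, Ttn, Neb, Des and Cryab were not called, with Des at 0.09 (adjusted p = 0.0586) and Cryab at 0.12 (adjusted p = 0.0723).

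Genes of other lists were also called in the same D-galactose libraries, where 11.9% of all genes rose and 13.1% fell. Of 8 sarcomeric myosin heavy chain genes 2 rose and 3 fell (median -0.19), and their summed level was 10997 to 11856 CPM in control and 9227 to 10057 in Dgal. Myh3, the embryonic heavy chain, changed by -0.63 ± 0.044 and Myh4, a fast one, by 0.40 ± 0.057. Of the 4 smooth muscle markers tested 3 rose, Cnn1 (1.17 ± 0.14), Tagln (0.47 ± 0.061) and Acta2 (0.22 ± 0.037), with list sums of 2394 to 2533 CPM in control and 2843 to 2916 in Dgal and Myh11 under 0.5 CPM. Of 10 markers of undifferentiated myoblasts 1 rose and 4 fell, with sums, mostly Cdh15, of 619 to 642 CPM in control and 566 to 579 in Dgal. Of 8 myotube markers 0 rose and 2 fell, and of 4 fibroblast markers none was called, with the sums given above. The part of these lists in the D-galactose results was not tested.

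**Figure D5:**
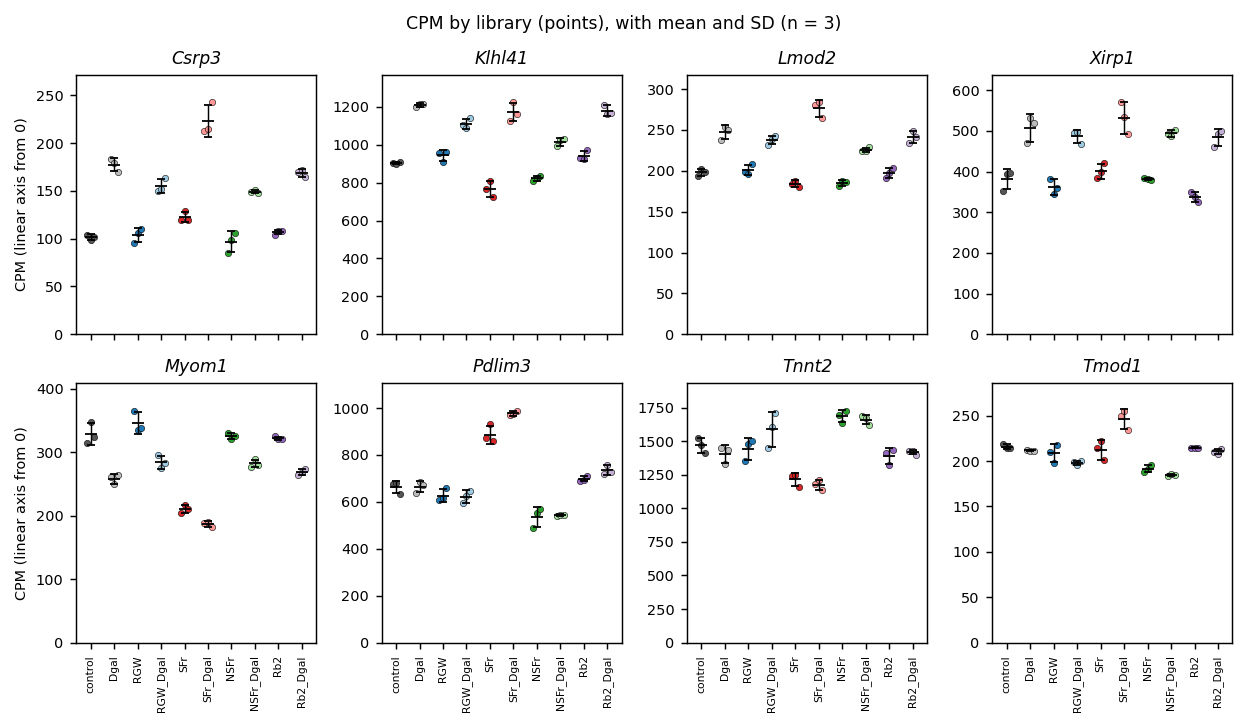
CPM of 8 genes in each of 30 libraries (points, by group), with the group mean and SD (n = 3), on linear axes from 0; groups alternate without and with D-galactose. Csrp3, Klhl41, Lmod2 and Xirp1 are higher and Myom1 is lower with D-galactose in all 5 neighbouring pairs, Pdlim3 is high with SFr and low with NSFr, Tnnt2 is high with NSFr, and Tmod1 is highest in SFr_Dgal.

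The D-galactose change was measured in 5 separate sets of libraries, once against control and once against each preparation alone. With RGW 18 of the 47 rose and 5 fell (6.3% and 8.91% of all genes, 15.2% in either direction), with SFr 27 and 2 (8.46% and 10.5%, 19.0%), with NSFr 14 and 4 (5.75% and 6.98%, 12.7%), and with Rb2 17 and 3 (9.81% and 11.2%, 21.0%). Called higher in all 5 were 10 members: Acta1, Actc1, Tpm1, Tpm3, Mybpc2, Csrp3, Lmod2, Lmod3, Xirp1 and Klhl41, or 21.3% of the 47 where 2.12% of all genes tested were. Mybpc1 and Myom1 were called lower in all 5, or 4.26% where 2.91% of all genes were, and 10 of the 47 genes were called in none, or 21.3% where 58.7% of all genes were. Without and with D-galactose in turn, Csrp3 was at 95.4, 106 and 109.9 and 149.7, 152 and 163 CPM with RGW, at 119, 129 and 119.9 and 212, 215 and 243 with SFr, at 84.8, 99.0 and 106 and 149, 151 and 148 with NSFr, and at 104, 108 and 108 and 169, 172 and 164 with Rb2. Myom1 was at 365, 334 and 338 and 295, 275 and 283 CPM with RGW, at 204, 216 and 211 and 189, 189.8 and 182 with SFr, at 329.6, 321 and 325 and 277, 289 and 280.3 with NSFr, and at 325, 320.2 and 321 and 263, 268 and 274 with Rb2. In all 4, as against control, no D-galactose library of Csrp3 was as low, and none of Myom1 as high, as a library of its partner group. The change in Csrp3 was 0.80 against control, 0.57 with RGW, 0.87 with SFr, 0.63 with NSFr and 0.66 with Rb2 on the log2 scale, and in Klhl41 it was 0.42, 0.23, 0.61, 0.30 and 0.33. The change in Xirp1 lay between 0.37 with NSFr and 0.52 with Rb2.

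Whether the D-galactose change differed after a preparation was tested directly as an interaction. With SFr, Lmod2 (0.26 ± 0.049, adjusted p = 0.00437) and Tmod1 (0.24 ± 0.05, adjusted p = 0.0123) passed, where 0.213% of all genes were called higher and 0.369% lower (0.583% in either direction). An unadjusted p under 0.05 was found for 27 of the 47 and for 13.2% of all genes. In Lmod2 the D-galactose change was 0.59 after SFr and 0.32 after vehicle, and in Tmod1 it was 0.21 after SFr and -0.03 after vehicle. Tmod1 was at 215, 222 and 201 CPM in SFr and 249, 256 and 234 in SFr_Dgal, against 219, 214 and 214 in control and 212, 211 and 211 in Dgal, so that only the SFr_Dgal libraries stood apart. The next in order were Unc45b (0.22 ± 0.055, adjusted p = 0.051) and Myl2 (0.37 ± 0.094, adjusted p = 0.062). The troponin genes that were called with SFr alone but not after D-galactose did not pass, with Tnni1 at 0.25 ± 0.086 (adjusted p = 0.193), Tnnc1 at 0.24 ± 0.099, Tnnc2 at 0.33 ± 0.1 and Tnnt3 at 0.19 ± 0.067. Nor did Ttn (0.86 ± 0.39, adjusted p = 0.355). Tmod1 lost its call without SFr replicate 3 (0.20, adjusted p = 0.0576) or SFr_Dgal replicate 2 (0.22, adjusted p = 0.0531), and with the long-transcript level as a covariate 15 of the 47 passed and with DESeq2 6. For these 2 fits the share of all genes that passed is not given, so the counts cannot be read as particular to the 47. In a fit of only these 4 groups neither was called (adjusted p = 0.0724 and 0.122).

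With RGW, NSFr and Rb2 none of the 47 genes passed the interaction test in edgeR, where 0.0%, 0.041% and 0.0% of all genes did. At an unadjusted p under 0.05 there were 11 of the 47 genes with RGW, 5 with NSFr and 2 with Rb2, where 9.46%, 7.07% and 4.49% of all genes were under it. DESeq2 called 0 in each, while with the long-transcript level as a covariate 5 passed with RGW, in a fit whose share of all genes is not given. The smallest adjusted p was that of Klhl41 with RGW (-0.19 ± 0.05, adjusted p = 0.221) and of Actn2 with NSFr (-0.24 ± 0.067, adjusted p = 0.241). With Rb2 the smallest (adjusted p = 0.96) was a tie that included Myom3, Flnc, Klhl41 and Csrp3.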

How the data were processed

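RNA was sequenced from 30 libraries (poly(A) selection, directional kit, paired ends, per the labels' protocols). The deposited table held RSEM expected counts per gene, made by the authors with RSEM 1.3.3 after alignment by STAR 2.7.9a to GRCm38/mm10, with Trim Galore 0.6.10 and FastQC 0.11.9 also listed, per the submitters' processing notes. For annotation and strand setting these sources state nothing (not given in the sources used here). Expected counts split reads shared by similar genes, and 19.4% of values were not whole, so they were rounded. Genes passing filterByExpr (12184 of 16025, all 47 members among them) were fitted in R 4.3.3 with edgeR 4.0.16 (TMM, robust quasi-likelihood, 1 model over the 10 groups), and p-values were adjusted over all of them by the method of Benjamini and Hochberg. Members and lists were chosen with earlier results of these data known. Per-kb levels used the longest transcript in GENCODE mouse release 21, in which 16021 symbols were found, and promoters came from RefSeq on GRCm38.p6. By the naming rule, library values were due for members with adjusted p under 0.05, at least 5 CPM and no overlap (the 8 largest rises and falls with D-galactose or the saponin fraction, up to 4 otherwise) and for a fixed set of 20. Some of these are given here as differences alone, mostly outside the comparisons of D-galactose and of the saponin fraction with their controls, and genes of other lists beyond the 4 of smallest p were chosen after their values were seen. Alternatives were DESeq2 1.42.0, RLE scaling, TMM from non-members, no filter, a replicate block, fits of only the groups compared, leaving out each library, and, after seeing the data, the long-transcript level as a covariate. On simulated counts for the SFr comparison (12095 genes), 70% of 50 genes changed 1.2-fold, 68% of 50 changed 1.3-fold and 92% of 50 changed 1.5-fold were recovered, with 6 false calls. The simulation gave all genes the same spread and no variation shared within a library. It therefore does not describe genes such as Ttn and Neb. In all 30 pairs of same-group libraries the counts differed beyond sampling noise, so each library counted as 1 sample. The ratio of 1 isoform pair is not reported here.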

Additional observations from a re-analysis of the deposited data

Results flagged for a closer look

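The D-galactose change differed between cells given SFr and cells given vehicle for 2 of the 47 genes by the interaction test in edgeR. For Lmod2, a leiomodin, the difference was 0.26 ± 0.049 on the log2 scale (adjusted p = 0.00437), with changes of 0.59 after SFr and 0.32 after vehicle. For Tmod1, a tropomodulin, it was 0.24 ± 0.05 (adjusted p = 0.0123), with changes of 0.21 and -0.03. In both genes the 3 SFr_Dgal libraries were the highest of the 12 libraries in these 4 groups. In a fit of only these groups neither passed.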

How the results depend on the processing

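No direction of a called value reversed under the alternatives run. Numbers of the 47 genes called moved by over 1.5 times in the cases below. The share of all genes called is not given for the alternatives, so whether it moved alike is left unsaid. In fits of only the groups compared, 1 gene was called with RGW, 0 with Rb2, 2 with RGW_Dgal, 2 with Rb2_Dgal and 0 in the SFr interaction. With the long-transcript level as a covariate, chosen after seeing the data, these were 9 with RGW, 8 with RGW_Dgal, 2 with Rb2_Dgal, 5 in the RGW interaction and 15 in the SFr interaction. Without the low-count filter 3 were called with RGW_Dgal, and DESeq2 called 6 in the SFr interaction; the cause was not tested. Leaving out 1 library at a time gave 15 to 20 with D-galactose, 37 to 39 with SFr, 31 to 33 with SFr_Dgal, 1 to 4 with RGW, 5 to 8 with NSFr, 0 to 1 with Rb2, 1 to 4 with RGW_Dgal, 5 to 7 with NSFr_Dgal, 0 to 1 with Rb2_Dgal and 1 to 5 in the SFr interaction. The interaction count was 5 without control replicate 3 or SFr_Dgal replicate 1, 4 without SFr replicate 2 and 1 without SFr replicate 3 or SFr_Dgal replicate 2. For D-galactose after a preparation the ranges were 18 to 24 (RGW), 24 to 29 (SFr), 12 to 15 (NSFr) and 16 to 23 (Rb2), and between the fractions 33 to 37 and, after D-galactose, 32 to 35. Of nuclear-encoded counts the members took 5.30% in control, 5.12% in RGW, 4.36% in SFr, 5.10% in NSFr and 5.14% in Rb2. With D-galactose the shares were 5.52% in Dgal, 5.65% in RGW_Dgal, 5.05% in SFr_Dgal, 5.44% in NSFr_Dgal and 5.51% in Rb2_Dgal. Libraries of a number did not deviate together (r from -0.177 to 0.157 over 15 comparisons), and a replicate block left the calls of 886 gene values on the same side of the threshold, with 4 lost and 3 gained, and gave 38 genes with SFr, 34 with SFr_Dgal, 20 with D-galactose, 10 with NSFr_Dgal, 21 for D-galactose after RGW and 19 after NSFr. Depth limited Myl3, Tmod4 and Nebl, whose counts stayed under 70 in every library.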

Other observations

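The non-muscle and smooth muscle relatives of these genes were also measured, as a list of 18 that shares Acta2 with the smooth muscle markers. With SFr 12 fell and 2 rose in edgeR's test, where 21.8% of all genes fell and 21.3% rose, and with SFr_Dgal against Dgal 14 fell and 2 rose, where 21.0% of all genes fell and 20.3% rose. Acta2, smooth muscle alpha-actin, went from 2076 ± 58.3 to 1182 ± 57.8 CPM (SD, n = 3; -0.81 ± 0.037), Actg2, smooth muscle gamma-actin, changed by -1.19 ± 0.063 and Csrp2, a smooth muscle LIM protein and relative of Csrp3, by -1.14 ± 0.062. Beta-actin (Actb) was not called (-0.10 ± 0.047, adjusted p = 0.0809), while vimentin (Vim), the intermediate filament of undifferentiated and mesenchymal cells, rose with desmin (0.37 ± 0.036, adjusted p = 2.24e-10).

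With D-galactose 7 of the 18 rose and 0 fell, where 11.9% of all genes rose and 13.1% fell. Myl9, a smooth muscle regulatory light chain, went from 69.1 ± 3.40 to 111 ± 0.820 CPM (0.68 ± 0.041, adjusted p = 1.01e-13), Actg2 changed by 0.54 ± 0.057 and Lmod1, the smooth muscle leiomodin, by 0.39 ± 0.074. Acta2 and Actg2 share sequence with Acta1 and Actc1, so that RSEM's split of shared reads enters their counts.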
